A study of Mus musculus with 16 samples.

Results

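The corticotropin receptor and the cAMP signalling machinery behind it were followed in fetal mouse adrenal glands through 9 genes, of 18193 with a probe set of their own on the array. They are the receptor gene Mc2r, its accessory protein gene Mrap, the protein kinase A genes Prkar1a, Prkaca and Prkacb, the phosphodiesterase genes Pde8b and Pde8a, and the transcription factor genes Creb1 and Crem. They were chosen by name, with earlier results of these data known, and every probe set annotated to one of these symbols was taken. All 9 were among the 13642 genes bright enough to be tested, and together they had 25 probe sets, of which 19 lay above the brightness filter. Total RNA of whole adrenals had been hybridised to Affymetrix Mouse430_2 arrays, which measure a transcript with sets of short oligonucleotide probes. The knockout (KO) embryos carried a Cre transgene driven by Sf1 regulatory sequence together with floxed Dicer, so that Dicer, the nuclease that makes mature microRNAs, was deleted in cells that use Sf1, among them the adrenal cortex. They were set against Cre-negative littermates on the same C57BL/6 background, labelled WT; the matings used floxed Dicer on both sides, and the labels do not state which Dicer alleles these littermates carried. The 4 groups were KO at embryonic day E15.5, WT at E15.5, KO at E16.5 and WT at E16.5, with 4 arrays each, and each array held the pooled adrenals of 1 genotype from 1 litter. KO and WT pools of a stage came from the same 4 litters, but the labels do not say that a shared replicate number marks a shared litter.

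Corticotropin from the pituitary binds the melanocortin 2 receptor, encoded by Mc2r, on the cells of the adrenal cortex. MRAP, a small membrane protein, carries that receptor to the cell surface. The occupied receptor acts through the stimulatory G protein on adenylyl cyclase, which makes cAMP; cAMP releases the catalytic subunits of protein kinase A (PKA) from their regulatory subunits. The kinase phosphorylates CREB and CREM, transcription factors that bind cAMP response elements, and the pathway raises steroid synthesis. Phosphodiesterases, among them the high-affinity enzymes encoded by Pde8a and Pde8b, break cAMP down.

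Sequence upstream of a start site was on hand for 6 of the 9 genes, in RefSeq windows of 250 bases on GRCm38.p6 (18 windows in all, some of them overlapping). Mc2r, Mrap and Crem are named only. In all 3 stretches are printed, 5′ to 3′ on the gene's strand, for the pair of related phosphodiesterase genes, of which Pde8b passed between KO and WT and Pde8a did not, and for the only window with a complete cAMP response element. Capitals mark the core TGACG, read on either strand, and in Prkar1a the TCA that directly follows it to make the full element; both strands of the full element hold the core.
Pde8b, chr13:95250402-95250586, minus strand, the bases upstream of the gene as annotated: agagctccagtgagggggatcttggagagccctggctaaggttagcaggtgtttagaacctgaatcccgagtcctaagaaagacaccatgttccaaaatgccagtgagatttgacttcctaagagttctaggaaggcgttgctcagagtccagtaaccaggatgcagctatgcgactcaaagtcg
Pde8a, chr7:81213015-81213264, plus strand, directly upstream of the gene: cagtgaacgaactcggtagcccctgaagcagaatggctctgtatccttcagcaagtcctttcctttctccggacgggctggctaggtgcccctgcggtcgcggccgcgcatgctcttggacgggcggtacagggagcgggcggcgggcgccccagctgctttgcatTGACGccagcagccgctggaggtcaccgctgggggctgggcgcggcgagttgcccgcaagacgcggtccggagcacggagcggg
Prkar1a, chr11:109650889-109650918, plus strand, upstream of an internal start site: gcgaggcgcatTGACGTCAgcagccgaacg
None of the 5 Pde8b windows held TGACG, whereas the Pde8a window held it once, beginning at position -84 counted from the start site. The full element of Prkar1a began at position -49, and 3 of that gene's 6 windows held the core. Over the 6 genes, 6 of 18 windows held TGACG and 1 held the full element; the Sf1 element AAGGTCA was in 0 of them. Of all 32851 windows in the table, 17.8% held TGACG, 1.55% the full element and 4.08% AAGGTCA. A match of letters is a description of the window and not a binding site.

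Values are RMA log2 signals, on which a difference of 1 is a factor of 2; levels are compared only within a probe set. Differences were tested with limma across all 13642 genes, and a gene passed at a Benjamini-Hochberg adjusted p under 0.05. By this rule 5.86% of all genes tested passed between KO and WT at E15.5 (503 higher and 297 lower) and 10.5% at E16.5 (954 higher and 485 lower). With each array centred on its 75th percentile the split turned to 276 higher and 372 lower at E15.5, and to 449 higher and 605 lower at E16.5. Dicer1 itself was lower by 0.35 at E15.5 (adjusted p = 0.0638) and by 0.36 at E16.5 (adjusted p = 0.0414), and Nr5a1, which encodes Sf1, differed by 0.56 and 0.19 (adjusted p = 0.396 and 0.797). Among arrays, WT E16.5 replicate 2 stood apart in RNA quality: its control probe sets gave a 3′ signal 3.15 above the 5′ signal (log2), against 0.19 to 1.62 on the other 15 arrays. Results at E16.5 are also given without it for those of the 9 genes, and of the pathway genes described, whose difference it moved by over 0.1. Signals ran slightly higher on KO arrays, at a mean of 6.35 to 6.37 per array against 6.30 to 6.32 on WT arrays. The median KO minus WT difference was 0.06 at both stages over all probe sets. It was 0.07 at E15.5 and 0.08 at E16.5 over the genes tested, and 0.10 and 0.07 over the 9008 dimmest probe sets. A further test, called the offset test below, asked whether a difference exceeded 0.37 at E15.5 or 0.36 at E16.5. That is the size that 10% of the dimmest probe sets reach or pass in either direction, and it is larger than these medians. It applies to rises and falls alike, while the shift ran upwards on KO arrays. For a fall, not passing thus says only that a difference beyond that size was not shown.

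In KO glands 3 of the 9 genes were lower at E16.5 and 0 were higher, with 3.56% of all genes tested lower by the same rule. These were the receptor gene Mc2r, its accessory protein gene Mrap and the phosphodiesterase gene Pde8b. The kinase genes Prkar1a, Prkaca and Prkacb, the second phosphodiesterase gene Pde8a, and Creb1 and Crem did not pass at either stage. At E15.5, where 2.18% of all genes were lower, 0 of the 9 passed in limma; Mc2r and Pde8b had an unadjusted p under 0.05. The median difference over the 9 genes was -0.07 at E15.5 and -0.13 at E16.5, against 0.07 and 0.08 over all genes tested. In the offset test 0 of the 9 genes passed at either stage.

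**Figure D1:**
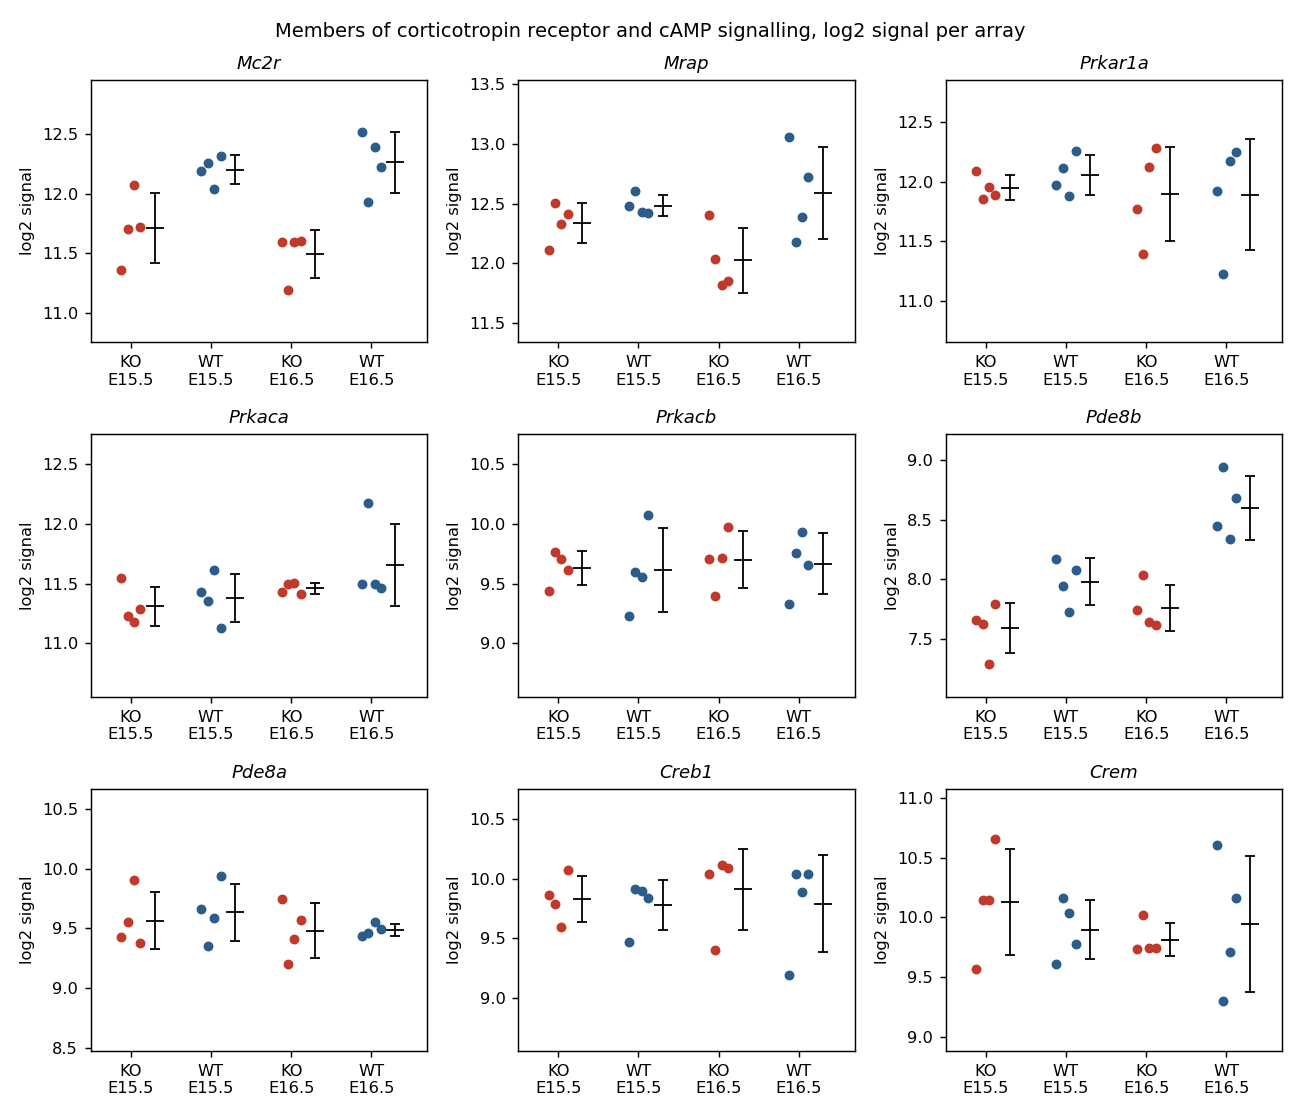
Log2 signal (vertical axis, each panel spanning the same number of log2 units) of the kept probe set of each of the 9 genes on every array; points are arrays, the bar and whiskers beside them the mean and SD of 4, KO in red to the left of WT in blue at each stage. The 4 KO arrays lie below the 4 WT arrays at E16.5 in Mc2r (11.19 to 11.60 against 11.93 to 12.51) and Pde8b (7.62 to 8.04 against 8.34 to 8.94), and the groups overlap in the other 7 genes.

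Mc2r encodes the G protein-coupled receptor for corticotropin, the entry point of the pathway. Its log2 signals in KO glands at E16.5 were 11.60, 11.19, 11.60 and 11.60, against 12.51, 11.93, 12.39 and 12.22 in WT glands. No KO value reached the lowest WT value, a separation in this direction that 4.76% of all genes tested showed. The mean was 11.50 ± 0.20 in KO and 12.26 ± 0.25 in WT (SD, n = 4 each), and the fitted difference was -0.77 (SE 0.15, 95% interval -1.09 to -0.44), or 0.588 of the WT level, with an adjusted p of 0.00403 in limma. Mc2r ranked 454 of 13642 genes by p in this comparison. The difference passed in each of the 8 fits that left out 1 array of these groups and was -0.88 without WT replicate 2 (adjusted p = 0.0013), but in the offset test its adjusted p was 0.304.

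A day earlier Mc2r gave 11.36, 11.70, 12.07 and 11.72 in KO glands, against 12.18, 12.25, 12.04 and 12.32 in WT glands. KO replicate 3 lay just above WT replicate 3, and the other 3 KO values lay below all WT values. The difference was -0.48 (SE 0.15) with an adjusted p of 0.0788; without KO replicate 3 it was -0.60 and passed (adjusted p = 0.0305). Ordered by mean, the groups ran from WT E16.5 at 12.26 through WT E15.5 at 12.20 and KO E15.5 at 11.71 to KO E16.5 at 11.50. Neither neighbouring pair of the same genotype passed in limma. E16.5 minus E15.5 was -0.22 in KO (SE 0.15, adjusted p = 0.758) and 0.07 in WT (SE 0.15, adjusted p = 0.957).

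Mrap encodes the accessory protein without which the receptor does not reach the surface. At E16.5 its log2 signals were 12.41, 12.03, 11.82 and 11.85 in KO glands, against 13.06, 12.18, 12.39 and 12.73 in WT glands. The groups overlapped, since KO replicate 1 lay above WT replicates 2 and 3. Mrap fell by 0.56 (SE 0.17, 95% interval -0.92 to -0.20), to 0.677 of the WT level, with an adjusted p of 0.0435 in limma. This call was the least firm of the 3: it was lost in 5 of 8 fits that left out 1 array, those without KO replicate 2, 3 or 4 or WT replicate 1 or 4, where the difference lay between -0.57 and -0.41 and the adjusted p between 0.0796 and 0.132. Without WT replicate 2 it was -0.70 (adjusted p = 0.0101), and in the offset test the adjusted p was 1.00.

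At E15.5 Mrap signals were 12.12, 12.51, 12.33 and 12.41 in KO glands and 12.48, 12.61, 12.43 and 12.42 in WT glands. These ranges overlapped, and the difference of -0.14 did not pass (adjusted p = 0.738). A second Mrap probe set was below the filter on all arrays, with signals of 3.37 to 3.95. Mrap is also used by fat cells, and of the 4 adipose marker genes looked up, Adipoq and Cidec lay below the filter while Fabp4 differed by -0.01 at E15.5 and 0.15 at E16.5 (adjusted p = 0.974 and 0.443).

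Pde8b encodes the cAMP phosphodiesterase known for its expression in the adrenal cortex. Its log2 signals at E16.5 were 7.75, 8.04, 7.64 and 7.62 in KO glands, against 8.45, 8.94, 8.34 and 8.68 in WT glands. All 4 KO values lay below all 4 WT values. The fitted difference was -0.84 (SE 0.15, 95% interval -1.16 to -0.52), or 0.559 of the WT level, with an adjusted p of 0.0016, the lowest among the 9 genes. It passed in all 8 fits that left out 1 array (-0.93 to -0.73), the value nearest to 0 being that without WT replicate 2, and its adjusted p was 0.121 in the offset test.

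A second Pde8b probe set read 7.99, 7.59, 7.67 and 7.72 in KO glands at E16.5, against 8.35, 8.19, 8.50 and 8.70 in WT glands. The groups were again fully apart, with a difference of -0.69 (adjusted p = 0.00401 in a limma fit of all 45037 probe sets, where 3.98% were lower). At E15.5 the kept probe set read 7.66, 7.63, 7.29 and 7.79 in KO and 8.17, 7.95, 7.72 and 8.08 in WT; KO replicate 4 lay above WT replicate 3. That difference was -0.39 (adjusted p = 0.16). The second probe set did not overlap at E15.5, with 7.45 to 7.58 in KO against 7.72 to 8.34 in WT, and 4.7% of all genes tested were fully lower there. It differed by -0.44 (adjusted p = 0.0508).

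In the kept Pde8b probe set the 4 WT values at E16.5 all lay above the 4 WT values at E15.5, as did 2.31% of all genes tested. In the second probe set these groups overlapped, with WT E15.5 replicate 4 (8.34) above WT E16.5 replicate 2 (8.19). The stage difference of the kept probe set was 0.62 in WT (SE 0.15, adjusted p = 0.15) and 0.17 in KO (adjusted p = 0.828). It passed in neither, while 0.0953% of all genes passed between stages in WT and 0.902% in KO. For the kept probe sets, the KO effects at the 2 stages differed by -0.45 for Pde8b, -0.42 for Mrap and -0.28 for Mc2r. None passed (adjusted p = 1.00 for each), nor did any of the 13642 genes, and of the 9 genes Pde8b alone had an unadjusted limma p under 0.05 (0.0476). A change of the KO effect between E15.5 and E16.5 was thus not shown for any of the 9 genes.

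Pde8a encodes the enzyme most closely related to that of Pde8b. It gave 9.74, 9.20, 9.41 and 9.57 in KO glands at E16.5 and 9.44, 9.47, 9.55 and 9.49 in WT glands, so that the WT values lay inside the KO range. The difference was -0.00 (95% interval -0.31 to 0.30), and at E15.5 it was -0.07 (95% interval -0.37 to 0.23). The second Pde8a probe set differed by -0.17 at E15.5 and 0.20 at E16.5, with wider intervals. Whether the 2 genes differ in their response to the knockout was not tested.

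**Figure D2:**
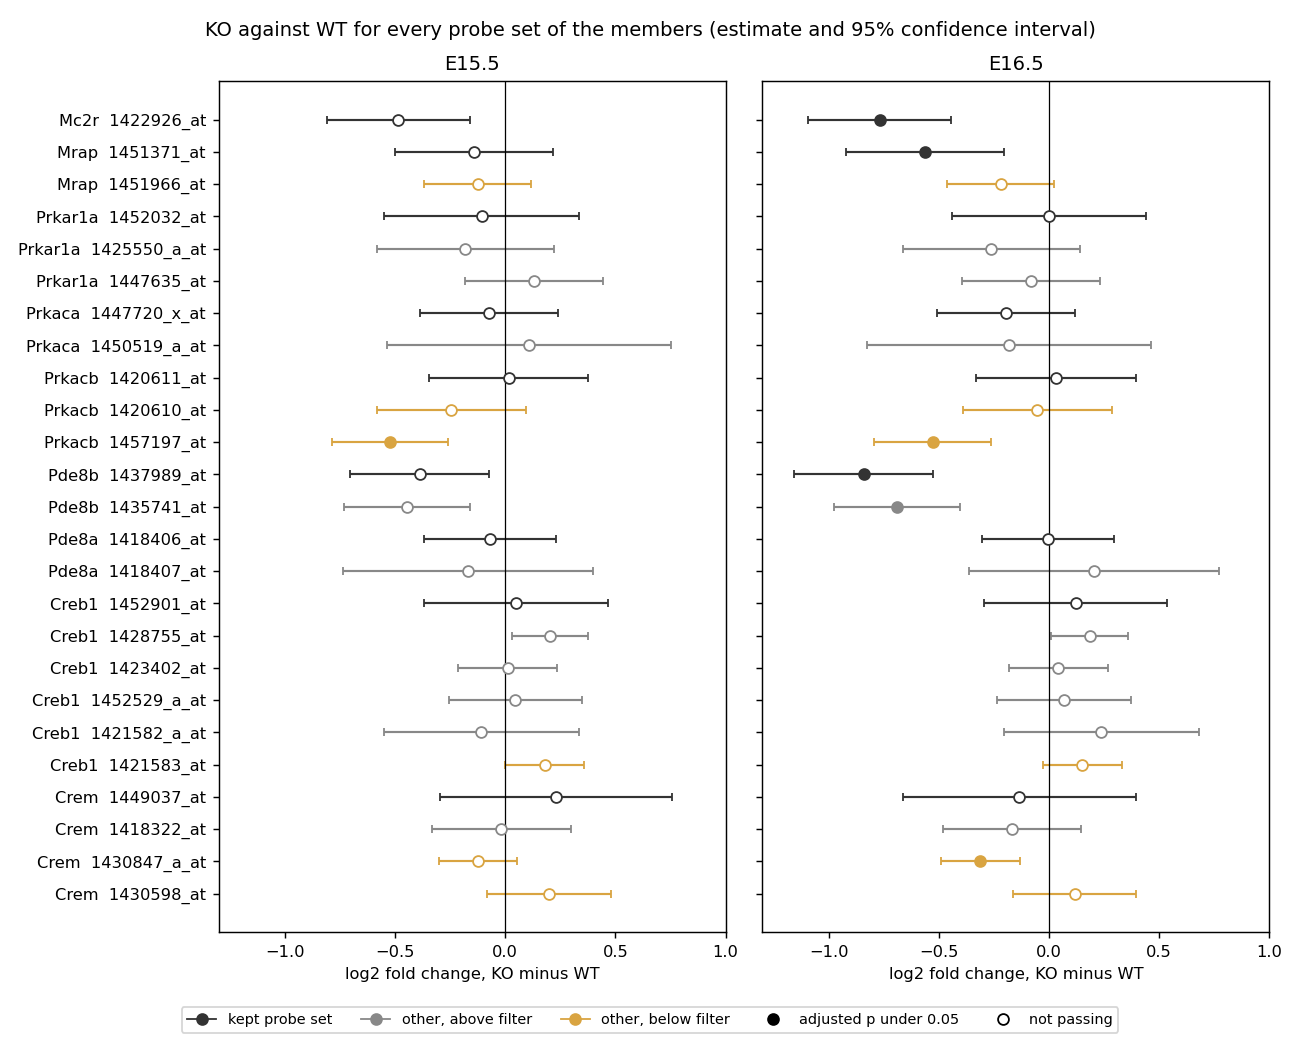
KO minus WT difference (horizontal axis, log2 units) with its 95% interval for all 25 probe sets of the 9 genes at E15.5 (left panel) and E16.5 (right panel), from a limma fit of every probe set; filled points passed at an adjusted p under 0.05, and colours show the kept probe set of a gene, others above the filter and others below it. Both Pde8b probe sets are below 0 and filled at E16.5 (-0.84 and -0.69), while the bright probe sets of the kinase genes, Pde8a, Creb1 and Crem are open at both stages.

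Prkar1a encodes the main type I regulatory subunit, which holds PKA inactive until cAMP binds. It read 11.77, 11.40, 12.12 and 12.28 in KO glands at E16.5, against 11.93, 11.23, 12.17 and 12.25 in WT glands. The groups covered nearly the same range, and the difference was 0.00 (95% interval -0.44 to 0.44). Without WT replicate 2, the lowest value, it was -0.22 (adjusted p = 0.451). At E15.5 the difference was -0.11 (adjusted p = 0.853), and the other 2 Prkar1a probe sets differed by -0.26 to 0.13 without passing.

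Prkaca and Prkacb encode catalytic subunits of the kinase. Prkaca read 11.41 to 11.51 in KO glands at E16.5, against 11.46 to 11.50 on 3 WT arrays and 12.18 on WT replicate 2, the array that stood apart in RNA quality. Its difference was -0.20 (adjusted p = 0.47), and -0.02 without that array; at E15.5 it was -0.07 (95% interval -0.39 to 0.24). The kept Prkacb probe set differed by 0.02 at E15.5 and 0.03 at E16.5 (adjusted p = 0.976 and 0.946).

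One dim Prkacb probe set behaved differently from the bright one. Its signals were 3.80 to 4.08 in KO glands against 4.25 to 4.61 in WT glands at E15.5, and 3.73 to 4.19 against 4.32 to 4.75 at E16.5. The groups were apart at both stages, by -0.52 and -0.53 (adjusted p = 0.0157 and 0.0128 in the fit of every probe set, where 3.02% and 3.98% were lower). It lay below the brightness filter on all 16 arrays, and the transcripts of Prkacb that it detects were not looked up. The remaining probe set, dim on most arrays, differed by -0.24 and -0.05 and did not pass.

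Creb1 and Crem encode the transcription factors at the end of the cascade; Crem also gives rise to shorter repressor forms. Creb1 read 10.04, 9.40, 10.12 and 10.09 in KO glands at E16.5 and 9.19, 10.04, 9.89 and 10.04 in WT glands. One low array in each group made the spread, and the difference was 0.12 (95% interval -0.29 to 0.54), against 0.05 at E15.5. The other 5 Creb1 probe sets differed by -0.11 to 0.24 over both stages, and none passed. In 2 of them the KO values at E15.5 all lay above the WT values, in a bright one at 9.49 to 9.68 against 9.37 to 9.44 (0.20, adjusted p = 0.141) and in a dim one by 0.18 (adjusted p = 0.211). Among all genes tested, 9.79% were fully higher at that stage.

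Crem had the largest standard error of the 9 genes (0.25). It read 9.73, 10.02, 9.74 and 9.75 in KO glands at E16.5, against 10.61, 9.30, 9.71 and 10.17 in WT glands, whose SD of 0.57 was the largest of any group of the 9 genes. The difference was 0.23 at E15.5 and -0.13 at E16.5 (adjusted p = 0.697 and 0.808), with 95% intervals of -0.29 to 0.75 and -0.66 to 0.39. Without WT replicate 2, the lowest WT value at E16.5, the difference there was -0.35 (adjusted p = 0.363). A bright second probe set differed by -0.02 and -0.17. Of the other 2, both below the filter on all arrays, 1 did not pass and 1 was lower in KO glands at E16.5, at 3.53 to 3.72 against 3.86 to 4.15 (-0.31, adjusted p = 0.0265 in the fit of every probe set).

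Other genes of the pathway were read from 6 lists, also chosen with earlier results known, of 82 genes in all, of which 68 were tested. The others were below the filter (8 genes) or had no probe set carrying their symbol alone (6 genes). In KO glands 2 of the 68 were higher and 4 lower at E15.5, and 9 were higher and 4 lower at E16.5. The median difference over the 68 was 0.10 at E15.5 and 0.07 at E16.5, close to that of all genes tested. Of all genes tested 3.69% were higher at E15.5 and 6.99% at E16.5, and 5.86% and 10.5% passed in either direction. All 4 KO values lay above all 4 WT values in 9.79% of all genes at E15.5 and in 10.4% at E16.5.

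Among PKA subunits, inhibitors and anchors, 14 genes were tested, and Prkar2b had the largest difference of the 68. It encodes a type II regulatory subunit of PKA. Its log2 signals were 11.04, 10.49, 10.84 and 10.42 in KO glands at E15.5, against 12.12, 12.17, 12.10 and 12.53 in WT glands. At E16.5 they were 10.38, 9.91, 10.27 and 10.41 in KO glands, against 12.06, 12.09, 12.30 and 12.50 in WT glands. The groups were more than 1 log2 unit apart at both stages, nearest array to nearest array.

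Prkar2b fell by 1.53 at E15.5 (SE 0.16, adjusted p = 1.76e-05) and by 2.00 at E16.5 (SE 0.16, adjusted p = 8.63e-07), to 0.346 and 0.25 of the WT level. It ranked 34 and 15 of 13642 genes by p. All 3 of its probe sets were lower, with differences from -1.53 to -1.47 at E15.5 and from -2.04 to -1.88 at E16.5. It passed the offset test at both stages, and in every fit that left out 1 array. Prkar2b lies at chr12:31958450-32061648 (GRCm38.p6).

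The paralogous type II subunit gene, Prkar2a, rose by 0.50 at E16.5 (SE 0.12, adjusted p = 0.0111), at 11.17 to 11.45 in KO glands against 10.56 to 10.93 in WT glands. Its second-brightest probe set differed by 0.11 at E16.5 and did not pass, and the mean of its probe sets differed by 0.17 (adjusted p = 0.388). The anchoring protein genes Akap5 and Akap13, whose products tether PKA in the cell, were also higher at E16.5, by 0.60 and 0.56 (limma adjusted p = 0.00881 and 0.0101), with no overlap between the groups. Akap5 was dim, at 5.21 to 5.69 in KO glands against 4.74 to 4.84 in WT glands at E16.5. Its WT signals lay within the range of a Prkacb probe set that failed the filter (4.42 to 5.42). Akap5 may thus have passed the filter through KO arrays alone, and its rise rests on signals near the floor. At E15.5 Prkar2a, Akap5 and Akap13 differed by 0.33 to 0.38 and did not pass. The remaining 10 genes of this list did not pass at either stage.

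**Figure D3:**
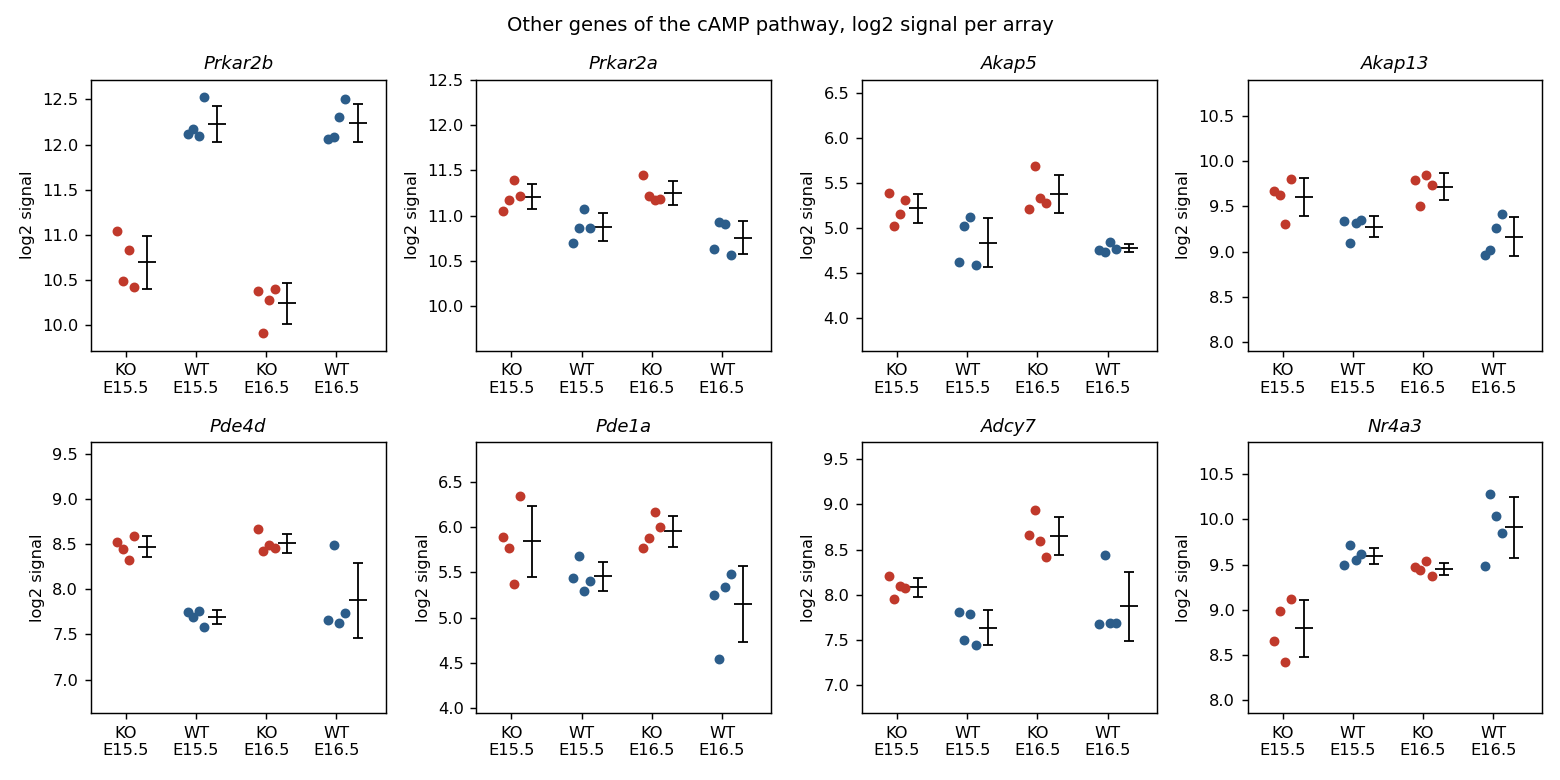
Log2 signal (vertical axis, each panel spanning the same number of log2 units) on every array for 8 further genes of the pathway; points are arrays, the bar and whiskers the mean and SD of 4, KO in red to the left of WT in blue at each stage. Prkar2b is lower on all KO arrays at both stages (10.42 to 11.04 against 12.10 to 12.53 at E15.5), and WT E16.5 replicate 2 lies at KO level in Pde4d (8.49).

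Of 10 other cAMP phosphodiesterase genes tested, 1 was higher in KO glands at E15.5 and 5 at E16.5, and 0 were lower. Pde4d, which encodes a cAMP-specific enzyme, read 8.32 to 8.59 in KO glands against 7.59 to 7.76 in WT glands at E15.5, a rise of 0.77 (SE 0.15; limma adjusted p = 0.00526). On E16.5 arrays it gave 8.42 to 8.67 in KO glands, against 7.62 to 7.74 on 3 WT arrays and 8.49 on WT replicate 2. The rise was 0.63 (adjusted p = 0.0143), or 0.83 without that array (adjusted p = 3e-05), and it was lost without WT replicate 3 (adjusted p = 0.0511). With the mean of its probe sets, which takes in a dim one that differed by -0.06 and -0.12, Pde4d differed by 0.36 at E15.5 and 0.26 at E16.5 and did not pass (adjusted p = 0.0581 and 0.147).

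The other 4 at E16.5 were Pde1a (0.80, adjusted p = 0.0182), Pde7b (0.72, adjusted p = 0.0475), Pde3b (0.44, adjusted p = 0.0451) and Pde7a (0.42, adjusted p = 0.013); Pde7a was named after its values were seen. Pde1a and Pde7a had no overlap between the groups, while in Pde7b and Pde3b WT replicate 2 reached the KO range (8.59 and 9.80). Pde7b and Pde3b each lost the call in 6 of 8 fits that left out 1 array, all but those without WT replicate 2 and, for Pde7b, KO replicate 4 or, for Pde3b, KO replicate 3. Without WT replicate 2 the differences were 0.95 for Pde7b, 0.57 for Pde3b and 0.60 for Pde1a, and each passed. Pde1a and Pde7a lost the call without KO replicate 3 (adjusted p = 0.0611 and 0.0525). After centring on the 75th percentile only Pde1a of the 5 passed, and after quantile normalization only Pde1a and Pde7a. Pde1a was dim, however, at 5.77 to 6.17 in KO glands against 4.54 to 5.48 in WT glands at E16.5. These WT signals lay in part within the range of the Prkacb probe set that failed the filter. Pde1a had a value in only 7 of the 9 settings other than leaving out arrays. With the mean of its probe sets Pde7a differed by 0.27 and did not pass (adjusted p = 0.184). In the offset test 0 of the 5 passed.

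Of 15 genes for G proteins and adenylyl cyclases tested, 1 was higher at each stage. Gnas, which encodes the stimulatory G protein subunit that couples the receptor to the cyclase, gave 13.55 to 13.85 in KO glands against 13.60 to 14.00 in WT glands at E15.5. It differed by -0.01 at E15.5 and -0.03 at E16.5 (adjusted p = 0.974 and 0.923). Adcy7, an adenylyl cyclase gene, rose by 0.78 at E16.5 (SE 0.16, adjusted p = 0.00551), at 8.42 to 8.93 in KO glands against 7.67 to 7.68 on 3 WT arrays and 8.44 on WT replicate 2. Without that array the rise was 0.97 (adjusted p = 0.000118). Gnai1, for an inhibitory G protein subunit, rose by 0.46 at E15.5 (SE 0.11, adjusted p = 0.0214). That call was lost in 5 of 8 fits without 1 array (KO replicate 1 or 4, or WT replicate 1, 2 or 3; adjusted p up to 0.0762), and with the mean of its probe sets (0.30, adjusted p = 0.243).

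None of the 11 other effector, CREB family and coactivator genes tested passed at E15.5 or E16.5, where 1 and 3 had an unadjusted limma p under 0.05. Of 9 early genes known to respond to cAMP, Nr4a3, a nuclear receptor gene, was lower at E15.5, at 8.42 to 9.12 in KO glands against 9.50 to 9.71 in WT glands (-0.80, SE 0.16, adjusted p = 0.00566). A day later Nr4a3 differed by -0.46 (adjusted p = 0.0808), and passed without WT replicate 1 (-0.60, adjusted p = 0.021) and with arrayWeights (-0.55, adjusted p = 0.000414). Without WT replicate 2 the difference was -0.34. The second-brightest Nr4a3 probe set differed by -0.05 and 0.14 and did not pass, and with the mean of its probe sets Nr4a3 did not pass at E15.5 (-0.23, adjusted p = 0.148). None of the 9 passed at E16.5, where 2 had an unadjusted limma p under 0.05.

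Steroidogenic genes that corticotropin is known to drive were also read. Activity of the pathway itself was not measured, and the steroidogenic genes described here also serve as cortex markers below. Of 9 tested, 2 were lower at E15.5 and 3 at E16.5, against 2.18% and 3.56% of all genes tested, and 0 were higher. Cyp11b1, for the enzyme that completes corticosterone, read 12.41 to 13.15 in KO glands against 13.46 to 13.92 in WT glands at E15.5, and 11.86 to 12.50 against 13.73 to 13.97 at E16.5. It fell by 0.94 (adjusted p = 0.00176) and by 1.58 (adjusted p = 8.3e-06), and passed the offset test at E16.5. Its sequence is close to that of Cyp11b2, and how far either probe set is specific was not tested.

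Cyp21a1, for an enzyme of the shared route to corticosterone and aldosterone, fell by 1.09 at E16.5 (SE 0.24, adjusted p = 0.00764), at 10.71 to 11.32 in KO glands against 12.03 to 12.11 in WT glands, a call lost with the mean of its probe sets (-0.92, adjusted p = 0.1). At E15.5 it differed by -0.82 (adjusted p = 0.0538), and passed without KO replicate 3 (-1.07, adjusted p = 0.0056). Hsd3b1, for a hydroxysteroid dehydrogenase early in that route, fell by 0.32 and 0.40 (adjusted p = 0.0214 and 0.00293), with no overlap at either stage. Its call at E15.5 was lost in 5 of 8 fits without 1 array, KO replicate 2 or 4 or WT replicate 1, 2 or 4 (adjusted p up to 0.0679). Star, for the cholesterol transfer protein of the mitochondria, differed by 0.19 at E15.5 and 0.00 at E16.5 (adjusted p = 0.575 and 0.995). Cyp11a1, which makes the first steroid, differed by -0.33 and -0.37 (adjusted p = 0.46 and 0.322) and passed at E16.5 without WT replicate 2 (-0.59, adjusted p = 0.0491) and with arrayWeights (-0.45, adjusted p = 0.00693).

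**Figure D4:**
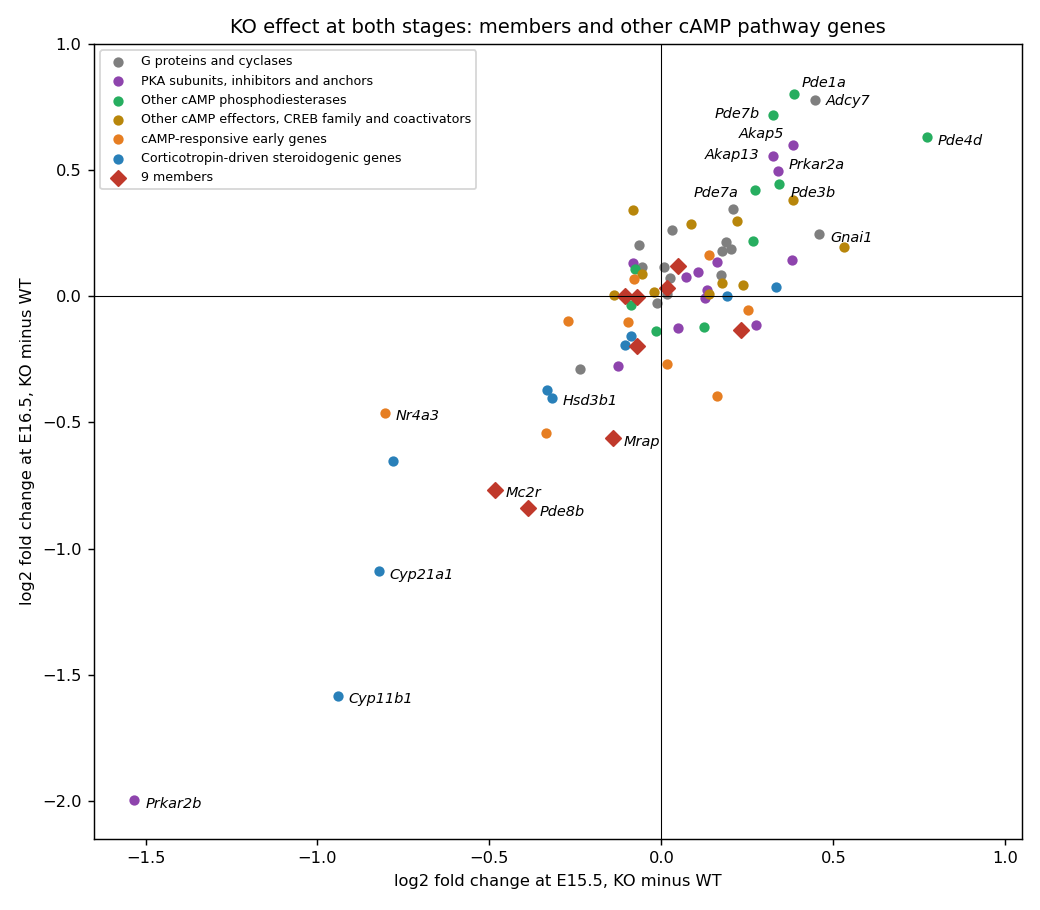
KO minus WT difference at E16.5 (vertical axis) against that at E15.5 (horizontal axis), both in log2 units, for the 9 genes (diamonds) and the 68 other pathway genes tested (circles, coloured by list); names mark genes that passed in either comparison. Prkar2b lies farthest from 0 at both stages, and Mc2r, Mrap and Pde8b lie below 0 on both axes.

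In whole glands, fewer cells of a type and less RNA per cell cannot be told apart. Most markers of the adrenal cortex moved in the same direction as Mc2r, Mrap and Pde8b, with a negative difference in 6 of 8 at each stage. By the limma rule 3 were lower at E15.5 and 4 at E16.5, against 2.18% and 3.56% of all genes tested, and 0 were higher. The 2 that were not lower were Star and Nr5a1, the latter with differences of 0.56 and 0.19. The summed signal of the 8 markers on the log2 scale was 15.84 to 16.14 in KO glands against 16.06 to 16.40 in WT glands at E15.5, and 15.63 to 16.01 against 16.13 to 16.38 at E16.5. Of these 8 markers, 6 are also on the steroidogenic list.

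Macrophage markers moved in the opposite direction, with a positive difference in 14 of 15 at each stage. This was also the direction of the phosphodiesterase, anchor and cyclase genes that rose, and of most other markers outside the cortex. Of 15 tested, 8 were higher at E15.5 and 14 at E16.5, against 3.69% and 6.99% of all genes tested. Their summed signal was 13.11 to 13.40 in KO glands against 12.26 to 12.55 in WT glands at E15.5, and 13.74 to 14.06 against 12.56 to 12.94 at E16.5. Chromaffin cell markers, 9 tested, were higher for 0 genes at E15.5 and 4 at E16.5. Whether passing or not, all 9 chromaffin, 6 endothelial and 3 erythroid markers tested had a positive difference at both stages. Capsule markers had one in 4 of 7 at E15.5 and 7 of 7 at E16.5. Of all 13642 genes tested, 8762 had one at E15.5 and 8769 at E16.5. Of 7 capsule, 6 endothelial and 3 erythroid markers tested, 0 passed at either stage, and of 5 kidney markers looked up only Six2 was tested, and it did not pass (adjusted p = 0.629 and 0.512). The part of these cell types in the differences above was not tested.

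The genes whose signals ran most closely with Mc2r over the 16 arrays were Cyp11b2, for aldosterone synthase (Pearson r = 0.92), Agpat3 (0.90), Sod3 (0.90), Hsd3b1 (0.90) and Fdx1, for the electron donor of mitochondrial steroid enzymes (0.90). All arrays enter these values, so a shared difference between KO and WT alone raises them. Cyp11b2 was lower in KO glands, with differences of -1.82 at E15.5 and -2.93 at E16.5 (adjusted p = 0.0105 and 0.000136). With each group's mean taken out, the 5 closest were instead Mrpl37 (0.93), Igfbp7 (0.92), Txn2 (0.92), Smim3 (0.91) and Kti12 (0.91), and none of these passed between KO and WT at either stage.

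For Mrap the closest genes were Ddt (0.91), Mob4 (0.89), Akr1b8 (0.87), Nudt9 (0.85) and Ccnq (0.83). With group means taken out they were Mrps18b (0.88), Ddt (0.85), Sra1, Timm23 and Mob4 (0.80 each), so that Ddt and Mob4 were on both lists. Mc2r and Mrap correlated with each other at 0.72 over the 16 arrays, and at 0.44 with group means taken out.

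For Pde8b they were Nipal2 (0.93), Shmt1 (0.93), Rusc1 (0.93), Naip5 (0.92) and Pdrg1 (0.92). All 5 were lower in KO glands at E16.5, from -0.48 in Nipal2 to -1.19 in Naip5. A choice by correlation over KO and WT arrays together favours such genes, so this is no separate support for Pde8b. With group means taken out, the closest were Arhgef6 (0.84), Gpr89 (0.81), Qrsl1 (0.80), Vps13a (0.80) and Cpsf3 (0.80). Of these only Arhgef6 passed between KO and WT, with differences of -1.04 at E15.5 and -1.02 at E16.5. By their kept probe sets, Mc2r and Pde8b correlated at 0.45 over all arrays but at -0.65 with group means taken out. At E16.5 replicate 2 gave the lowest Mc2r signal and the highest of the kept Pde8b probe set. These were 11.19 and 8.04 in KO, and 11.93 and 8.94 in WT. The second Pde8b probe set went the other way, with replicate 2 lowest in its group at 7.59 in KO and 8.19 in WT. The correlation of that probe set with Mc2r was not computed. That WT array is the one that stood apart in RNA quality. How far it carries the correlations with group means taken out, for all 3 genes, was not tested.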

How the data were processed

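The authors deposited a table of log2 signals for every probe set on 16 arrays, for which the submitters' processing notes name RMA and limma. Their versions, and whether all arrays were normalized together, are not given in the sources used here. RMA compresses dim probe sets towards the floor, which understates their changes. No further normalization was applied. Probe sets were named from the platform annotation; of 45037 non-control probe sets, 34945 had 1 symbol. The brightest probe set by mean was kept per gene and tested if 4 or more arrays placed it over their own 40th percentile (13642 genes tested, 4551 below the filter). limma 3.58.1 in R 4.3.3 (with the data.table package, 1.17.8) fitted a mean per group to all 16 arrays with eBayes, two-sided, with Benjamini-Hochberg adjustment over all genes tested. The fit was tested on simulated data. The number of arrays limits the precision, and no 2 arrays were identical.

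The genes and lists were chosen with earlier results of these data known. Named genes are the 9 members, up to 4 genes of each list with the largest change among those that passed, the 5 genes most correlated with Mc2r, Mrap and Pde8b, and Dicer1 and Nr5a1. Gnas, Star, Cyp11a1, Pde7a, Mgarp and Creb5, and markers named singly, fall outside this rule and were chosen with their values known. The offset test is limma's treat with the 90th percentile of absolute KO minus WT differences in the dimmest 20% of probe sets. Alternatives were quantile normalization, centring on the 75th percentile, no filter and a stricter filter, the mean of all probe sets, arrayWeights, the replicate number as a block, only the arrays compared, leaving out each array, and, chosen after seeing the data, every probe set in the fit. Upstream sequences and gene positions are RefSeq's on GRCm38.p6.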

Additional observations from a re-analysis of the deposited data

Results flagged for a closer look

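Values far from the other 3 of their group were looked for in the 25 probe sets of the 9 genes and the kept probe set of Prkar2b, with 4 groups each, 104 groups in all, by Dixon's criterion; 6 met it, and chance alone gives about 1 in 20. KO E16.5 replicate 2 accounted for 3 of them: Mc2r at 11.19 against 11.60 on the other arrays of its group, Creb1 (its kept probe set) at 9.40 against 10.04 to 10.12, and Crem (its kept probe set) at 10.02 against 9.73 to 9.75. WT E16.5 replicate 2 was high in Prkaca, at 12.18 against 11.46 to 11.50. WT E15.5 replicate 1 was low in 2 Creb1 probe sets, at 9.47 against 9.84 to 9.91 in the kept one, and at 2.69 against 2.78 to 2.79 in a dim one.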

How the results depend on the processing

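Mc2r and Pde8b stayed lower in KO glands at E16.5, and past the threshold, under every alternative except the offset test. At E15.5 the count of the 9 genes passing was 1 with arrays centred on the 75th percentile (Mc2r), with the mean of all probe sets (Pde8b), with arrayWeights (Mc2r), with the replicate number as a block (Pde8b, adjusted p = 0.0495) and with every probe set in the fit (Prkacb), against 0; without 1 array it was 0 to 1. At E16.5 the count was 0 in the offset test and 5 with every probe set, against 3, and without 1 array it was 2 to 3. With every probe set, Prkacb at both stages and Crem at E16.5 were counted only through dim probe sets. Those lay below the filter on all 16 arrays, and the bright probe sets of these genes did not pass. Mrap also lost its call with only the E16.5 arrays in the fit (adjusted p = 0.149). The count for E16.5 against E15.5 in WT was 1 with arrayWeights (Pde8b, 0.40, adjusted p = 0.0251), against 0. Of the 68 other pathway genes, 1 passed in the offset test at E15.5 (4 to 7 without 1 array), and at E16.5 2 passed in the offset test, 7 with the mean of probe sets and 29 with arrayWeights (10 to 16 without 1 array); with arrayWeights 6 passed between stages in WT and 5 in KO (0 to 1 without 1 array). Of all genes, 800 passed at E15.5, against 1688 with no filter, 476 with the stricter filter, 1350 with arrayWeights and 119 in the offset test. At E16.5 1439 passed, against 2355 with no filter, 4938 with arrayWeights, 243 in the offset test and 817 with only the E16.5 arrays. With arrayWeights 6 genes passed for the difference between stages, 1102 between stages in WT and 435 in KO, against 0, 13 and 123. The offset test removes calls by construction, and the cause of the other changes was not tested.

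Replicate numbers are shared between KO and WT but not stated to mark a litter. Same-numbered arrays deviated together with r over 0.1 in 5 of 8 pairs (r from -0.24 to 0.40), and 2 of 8 correlated best with their own number, so the numbers were not taken to pair. With the replicate block, 1 of the 9 genes passed at E15.5, 3 at E16.5 and 0 for the difference between stages; stage comparisons could not be fitted with it.

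Signs turned only for differences that did not pass, all small. At E15.5 these were Prkaca (0.019 with the mean of probe sets), Prkacb (-0.062 with quantile normalization, -0.060 with centring, -0.25 with the mean of probe sets), Creb1 (-0.028 with quantile normalization, -0.029 with centring) and Gnas (0.016 with quantile normalization, 0.016 with arrayWeights). At E16.5 they were Prkar1a (-0.087 with centring, -0.11 with the mean of probe sets, -0.067 with arrayWeights), Prkacb (-0.053 with quantile normalization, -0.056 with centring, -0.18 with the mean of probe sets, -0.10 with arrayWeights), Pde8a (0.10 with the mean of probe sets), Gnas (0.18 with the mean of probe sets) and Star (-0.085 with centring). Without 1 array, the ranges that crossed 0 at E15.5 were -0.16 to 0.0067 for Prkaca, -0.11 to 0.17 for Prkacb, -0.18 to 0.030 for Pde8a, -0.054 to 0.13 for Creb1 and -0.055 to 0.078 for Gnas. At E16.5 they were -0.22 to 0.17 for Prkar1a, -0.081 to 0.13 for Prkacb, -0.092 to 0.088 for Pde8a, -0.079 to 0.29 for Creb1, -0.35 to 0.087 for Crem, -0.072 to 0.018 for Gnas and -0.075 to 0.14 for Star.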

Other observations

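Some pathway genes separated KO from WT without passing, and are given here as values chosen after they were seen. Mgarp, a mitochondrial protein gene of steroid-producing cells, averaged 12.15 ± 0.21 in KO glands and 12.93 ± 0.07 in WT glands at E15.5 (SD, n = 4 each), with no overlap and a difference of -0.78; its adjusted p was 0.0648. Creb5, a CREB family gene, averaged 7.09 ± 0.16 in KO glands and 6.56 ± 0.49 in WT glands at E15.5 (SD, n = 4 each), again with no overlap (0.53, adjusted p = 0.161). Of all genes tested, 4.7% were lower without overlap at E15.5 and 9.79% higher without overlap.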
